A study of Homo sapiens with 10 samples.

Results

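The nuclear pore and nuclear transport genes were examined in subcutaneous xenografts of the melanoma line A375, which is human and long established. Members were chosen by gene symbol: nucleoporins whose symbol is NUP followed by a number, the importin genes KPNA, KPNB, IPO and TNPO, the exportin genes XPO, and RAN, RANBP1, RANBP2, RANGAP1, RCC1, CSE1L, TPR and NDC1. This gave 49 genes of the 17492 with a value, each measured by 1 probe set. The rule uses symbols and no measured value. RCC1, NUP62 and NUP98 were not analysed here. Tumours grew in BALB/c nude mice, and both groups shared the cell line, the host and the drinking-water route. One group received doxycycline, which induces Omomyc, a dominant-negative MYC derivative, in the tumour cells. The other received the vehicle. Dosing began at a tumour volume of 100 mm3 and tumours were excised after 7 days. Each group held 5 tumours, named as biological replicas, with 1 array each. No doxycycline-treated tumour lacking Omomyc was analysed here, so Omomyc and doxycycline itself cannot be told apart. The labels give neither the promoter that drives Omomyc, nor the number of clones behind the line, nor the age of the mice.

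The nuclear pore is a ring of nucleoporins set into the nuclear envelope, and carriers of the importin and exportin families move cargo through it. Direction comes from the small GTPase Ran, which is loaded with GTP in the nucleus and hydrolyses it in the cytoplasm. Importins release cargo on binding RanGTP, and exportins need RanGTP to hold theirs. In dividing cells Ran also guides spindle assembly around the chromosomes, and RAN and RANBP1 stand in widely used collections of MYC target genes.

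Of the 49 members, 9 fell in the doxycycline tumours and 0 rose (limma, Benjamini-Hochberg adjusted p under 0.05 over all 17492 genes). The 9 were RAN and its co-factor RANBP1, the exportin genes XPO5, XPO6 and CSE1L, the importin genes IPO5 and KPNB1, and the nucleoporin genes NUP205 and NDC1. They make up 18.4% of the members, while 5.95% of all genes fell and 5.03% rose. At an unadjusted limma p under 0.05, 12 of the 49 members were lower and 3 higher. Of all 17492 genes 2115 (12.1%) were lower and 2192 (12.5%) higher. The median change over the 49 members, doxycycline minus vehicle, was -0.10 on the log2 scale, and over all genes it was 0.02. The median change of the 40 members that did not pass was -0.04, with 24 below 0 and 16 above. Over all 49 members 33 changes were below 0 and 16 above, while 8323 of the 17492 changes of all genes (47.6%) were below 0. Of the 49 members, 6 fell by at least 1.5-fold, where 4.60% of all genes did. Without vehicle array 1, 5 members fell in place of 9.

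**Figure D1:**
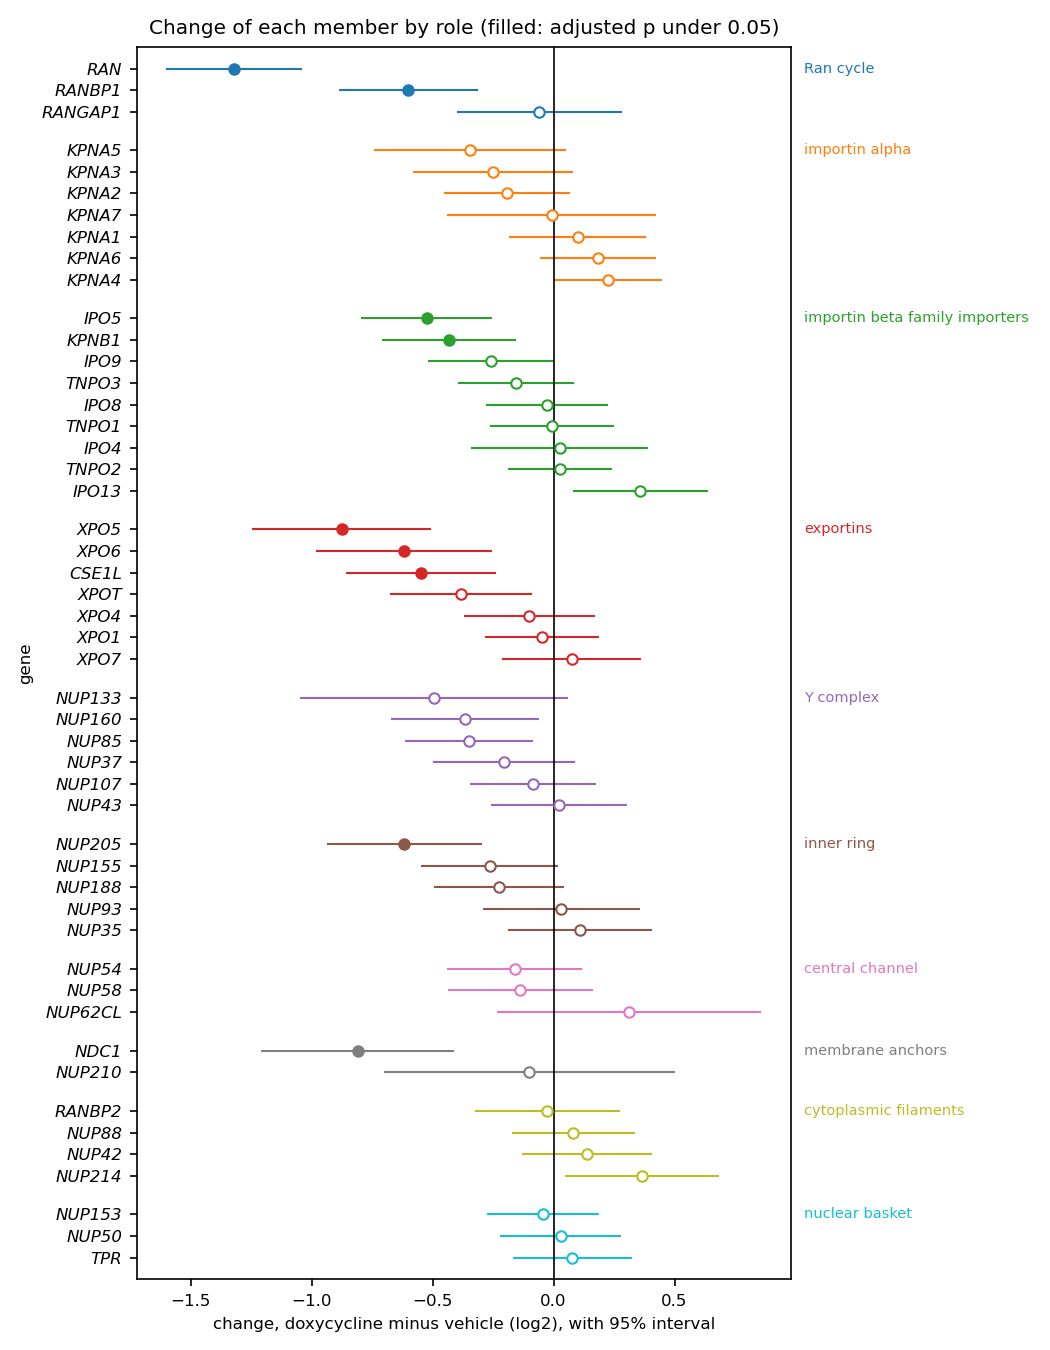
Change of each of the 49 members, doxycycline minus vehicle on the log2 scale, with its 95% interval, grouped and coloured by role; filled points passed the adjusted p of 0.05. RAN lies farthest from 0, at -1.32, and the 9 filled points all lie below 0.

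Values are log2 expression on each array as deposited, and arrays are named by their replicate number. Array medians were 5.43 to 5.53. Correlations between arrays were 0.979 to 0.987 within vehicle and 0.965 to 0.985 within doxycycline. Doxycycline arrays 4 and 5 had the lowest mean correlation with their own group, 0.973 and 0.967. The melanoma label was checked with 10 markers. Over all arrays SOX10 averaged 7.44, S100B 6.48 and AXL 7.81. The pigment genes MLANA, PMEL, TYR and TYRP1 lay among the dimmest 30% of genes, and MITF, S100A1 and ERBB3 did not. Of the 10 markers only ERBB3 passed, rising by 1.67 (limma adjusted p = 0.0214). On doxycycline array 5 SOX10 was 6.49 and S100B 5.06, with the other doxycycline arrays at 7.45 to 7.85 and 7.21 to 7.48. ERBB3 was 3.97 on that array, with the others at 5.78 to 6.51. S100A1 was also lowest of the doxycycline group on array 5, while AXL and MITF were highest. In such bulk tumours, fewer cells of a type and less RNA per cell cannot be told apart.

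RAN encodes the GTPase itself and had the largest change of the 49. Its values on vehicle arrays 1 to 5 were 10.21, 10.14, 10.03, 10.37 and 10.0004. On doxycycline arrays 1 to 5 they were 8.99, 8.88, 8.99, 8.54 and 8.75. All doxycycline arrays thus lay more than a log2 unit below the lowest vehicle array. RAN fell by 1.32 (SE 0.13, 95% CI -1.60 to -1.04, limma adjusted p = 8.52e-05), a vehicle level 2.50-fold that of doxycycline. Its call held in each of the 22 alternative analyses, with changes of -1.36 to -1.20.

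RANBP1 encodes the cytoplasmic protein that binds RanGTP and assists its hydrolysis. It read 9.03, 9.03, 9.17, 9.25 and 9.23 on vehicle arrays 1 to 5, and 8.65, 8.42, 8.66, 8.20 and 8.78 on doxycycline arrays 1 to 5. The groups did not overlap, and array 4 was again the lowest of the doxycycline arrays. RANBP1 fell by 0.60 (SE 0.13, 95% CI -0.89 to -0.31, limma adjusted p = 0.0119). RANGAP1, which encodes the GTPase-activating protein of Ran, differed by -0.06 (95% CI -0.40 to 0.28, adjusted p = 0.870). Its values were 7.23, 7.60, 7.20, 7.34 and 7.43 in vehicle and 7.24, 7.39, 7.38, 6.83 and 7.65 in doxycycline tumours. Both the lowest and the highest of these 10 RANGAP1 values were in doxycycline tumours, on arrays 4 and 5. Of the 3 Ran cycle genes among the members 2 fell, where 5.95% of all genes did.

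**Figure D2:**
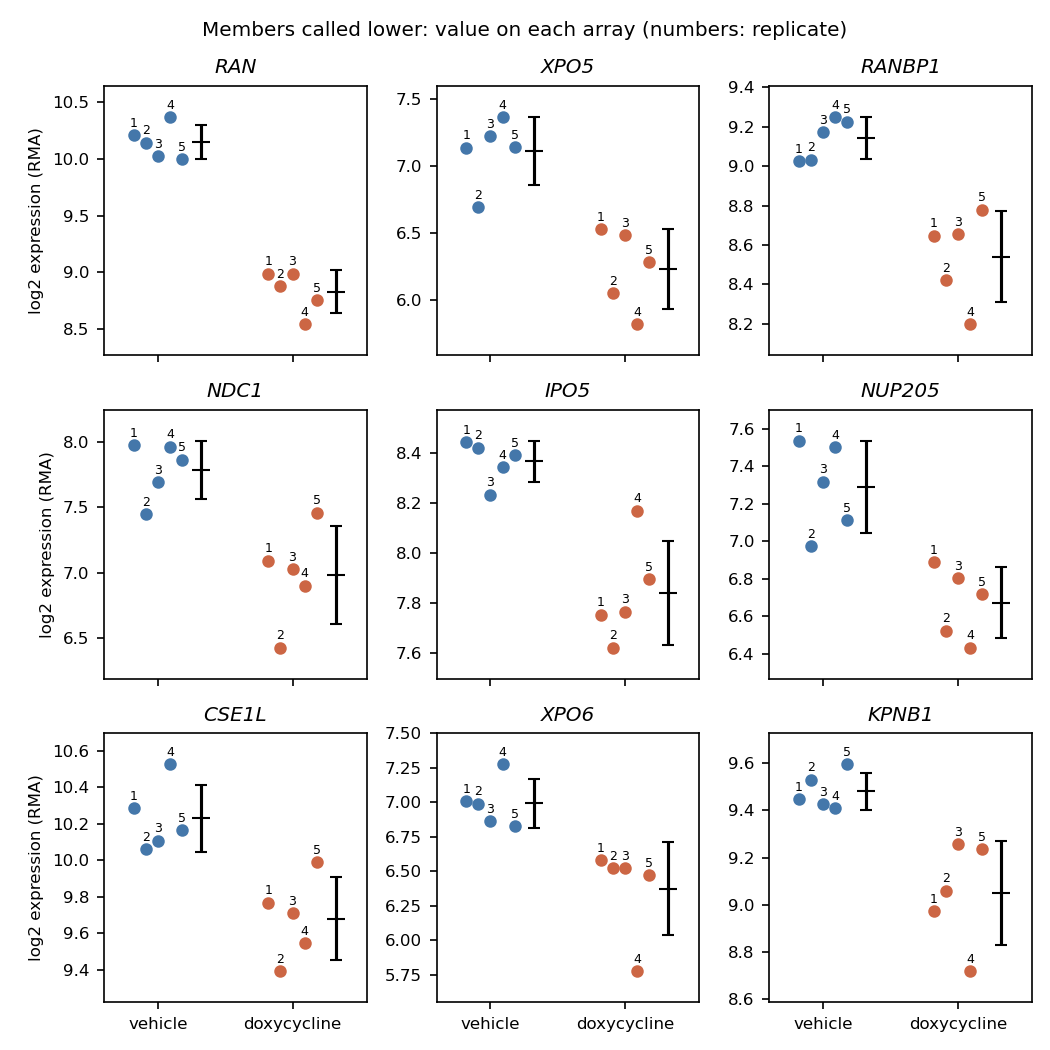
Log2 expression of the 9 members that fell, on each of the 5 vehicle and 5 doxycycline arrays (small numbers give the replicate), with the group mean and SD as a bar; each panel has its own y axis, which does not start at 0. In NDC1 alone of these 9 genes the groups overlap, through vehicle array 2 and doxycycline array 5.

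The RAN promoter is shown because RAN changed most and because its window holds a 6-base E-box, the sequence bound by MYC with MAX. The RefSeq stretch runs from 250 bases before the start of the gene to 20 after it (chr12:130871816-130872085, plus strand, GRCh38.p14). Capitals mark CACGTG, the E-box, and TTTGAA, the core of the CHR element found before many cell cycle genes.
RAN: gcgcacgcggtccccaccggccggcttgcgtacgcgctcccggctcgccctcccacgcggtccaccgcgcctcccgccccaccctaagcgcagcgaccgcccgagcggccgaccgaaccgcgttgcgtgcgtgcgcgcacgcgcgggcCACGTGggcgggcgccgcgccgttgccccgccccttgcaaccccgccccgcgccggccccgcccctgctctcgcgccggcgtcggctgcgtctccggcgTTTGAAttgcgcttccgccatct
The E-box of RAN begins 102 bases before the start, and TTTGAA begins 3 bases before it.

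Among the 7 exportin genes 3 fell, and 6 of 7 changes were below 0. Over all genes 5.95% fell, and 47.6% of changes were below 0. XPO5 encodes the exporter of microRNA precursors. Its values were 7.13, 6.69, 7.22, 7.36 and 7.14 on vehicle arrays 1 to 5 and 6.53, 6.05, 6.48, 5.82 and 6.28 on doxycycline arrays 1 to 5. Vehicle array 2 came nearest to the doxycycline arrays, and the groups did not overlap. XPO5 fell by 0.88 (SE 0.17, 95% CI -1.25 to -0.51, limma adjusted p = 0.00597), 1.84-fold higher in vehicle. It kept its call in all 22 alternatives.

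XPO6 encodes the exporter of actin with profilin. It read 7.01, 6.99, 6.86, 7.28 and 6.83 in vehicle and 6.58, 6.52, 6.52, 5.78 and 6.47 in doxycycline tumours. Doxycycline array 4 stood well below the other doxycycline arrays, and no value overlapped. XPO6 fell by 0.62 (SE 0.17, 95% CI -0.98 to -0.25, limma adjusted p = 0.0334), and by 0.47 without doxycycline array 4 (adjusted p = 0.0366). It did not pass without vehicle array 1, 2, 3 or 4 (adjusted p = 0.0718, 0.0642, 0.0545 and 0.0824) or without doxycycline arrays 4 and 5 (adjusted p = 0.0601). Nor did it pass with the replicate number as a block, with unmoderated tests of unequal variances, or with a stroma marker score as a covariate (adjusted p = 0.0879, 0.0905 and 0.102).

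CSE1L encodes the exportin that carries importin alpha back to the cytoplasm. Its values were 10.29, 10.06, 10.11, 10.53 and 10.17 in vehicle and 9.77, 9.39, 9.71, 9.54 and 9.99 in doxycycline tumours. The gap between the groups was narrow, from 9.99 on doxycycline array 5 to 10.06 on vehicle array 2. CSE1L fell by 0.55 (SE 0.14, 95% CI -0.86 to -0.24, limma adjusted p = 0.0272). It did not pass when vehicle array 1 or 4, or doxycycline array 2 or 4, was left out (adjusted p = 0.0652, 0.0691, 0.0636 and 0.0575), with the replicate block (adjusted p = 0.0556) or with the stroma covariate (adjusted p = 0.0667). The change of CSE1L was also smaller than the minimum of 1.5-fold used in 1 alternative.

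XPOT, the tRNA exporter gene, read 9.66, 9.56, 9.68, 9.66 and 9.59 in vehicle and 9.20, 9.25, 9.40, 8.85 and 9.54 in doxycycline tumours. The groups did not overlap, but doxycycline array 5 lay just under the vehicle range. XPOT differed by -0.38 (95% CI -0.68 to -0.09, adjusted p = 0.0942), and passed without doxycycline array 5 (limma adjusted p = 0.0473). XPO1, the main exporter of proteins with leucine-rich export signals, differed by -0.05 (95% CI -0.28 to 0.19). XPO4 and XPO7, which encode exporters of further proteins, differed by -0.10 (95% CI -0.37 to 0.17) and 0.08 (95% CI -0.21 to 0.36).

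The XPO5 promoter is shown beside that of RAN as the second most changed member (chr6:43576019-43576288, minus strand, GRCh38.p14, RefSeq, the same 270 bases around the start).
XPO5: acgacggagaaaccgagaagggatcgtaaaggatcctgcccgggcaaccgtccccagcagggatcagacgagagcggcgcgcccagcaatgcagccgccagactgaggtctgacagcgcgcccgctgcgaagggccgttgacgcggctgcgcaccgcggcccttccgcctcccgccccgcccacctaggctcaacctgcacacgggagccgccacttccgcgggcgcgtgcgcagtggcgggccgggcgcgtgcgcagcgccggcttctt
The stretch has no capitals, since neither CACGTG nor TTTGAA was found in it on either strand.

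Among the 9 importers of the importin beta family 2 fell, where 5.95% of all genes did. IPO5 encodes a carrier of ribosomal proteins and histones. It read 8.44, 8.42, 8.23, 8.34 and 8.39 on vehicle arrays 1 to 5 and 7.75, 7.62, 7.76, 8.17 and 7.89 on doxycycline arrays 1 to 5. Doxycycline array 4, the lowest array for RAN, XPO5 and XPO6, was the highest of its group for IPO5, just under the vehicle range. IPO5 fell by 0.52 (SE 0.12, 95% CI -0.80 to -0.25, limma adjusted p = 0.0179) and passed in each of the 10 analyses that left out 1 array. Its change was smaller than the minimum of 1.5-fold.

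KPNB1 encodes importin beta, the carrier that works with the importin alpha adaptors. Its values were 9.45, 9.53, 9.43, 9.41 and 9.60 in vehicle and 8.97, 9.06, 9.26, 8.72 and 9.24 in doxycycline tumours. The groups did not overlap, and vehicle arrays varied less than doxycycline arrays, with SDs of 0.08 and 0.22. KPNB1 fell by 0.43 (SE 0.13, 95% CI -0.71 to -0.16, limma adjusted p = 0.0470), close to the threshold. It passed in 2 of the 10 analyses that left out 1 array, those without doxycycline array 3 or 5. In the other 8, without any 1 vehicle array or without doxycycline array 1, 2 or 4, the adjusted p was 0.0761 to 0.0993. It also missed the threshold with the replicate number as a block, a second quantile normalization, unequal variances or the stroma covariate (adjusted p = 0.0728, 0.0694, 0.0814 and 0.0910), and without doxycycline arrays 4 and 5 (adjusted p = 0.0727). The change of KPNB1 was also smaller than the minimum of 1.5-fold.

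IPO13, which encodes a carrier that works in both directions, had the largest positive change among these importers. It read 6.68, 6.35, 6.38, 6.52 and 6.80 in vehicle and 7.05, 7.02, 6.70, 6.94 and 6.81 in doxycycline tumours. The groups overlapped through doxycycline array 3, and the difference was 0.36 (95% CI 0.08 to 0.64, limma adjusted p = 0.0992). IPO9, a histone carrier gene, differed by -0.26 (95% CI -0.52 to 0.00079, adjusted p = 0.204). TNPO3, which encodes the importer of serine- and arginine-rich splicing factors, differed by -0.16 (95% CI -0.40 to 0.09). IPO4, IPO8, TNPO1 and TNPO2 had changes of -0.03 to 0.03. TNPO1 and TNPO2 import RNA-binding proteins such as hnRNP A1.

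None of the 7 importin alpha genes, whose products bind the classical nuclear localisation signal, passed. KPNA4 read 8.39, 8.44, 8.51, 8.39 and 8.25 in vehicle and 8.56, 8.68, 8.61, 8.66 and 8.59 in doxycycline tumours. It was the 1 member whose doxycycline arrays all lay above the vehicle arrays, where 5.38% of all genes did so. Its difference of 0.23 (95% CI 0.0027 to 0.45) had an adjusted p of 0.197 with limma. With the test that takes the variances as unequal, KPNA4 passed (adjusted p = 0.0476). KPNA2, an importin alpha gene that peaks in dividing cells, read 10.08, 10.12, 10.14, 10.22 and 10.11 in vehicle and 9.86, 9.74, 9.95, 9.87 and 10.27 in doxycycline tumours. In 4 of the 5 doxycycline tumours KPNA2 was below the vehicle range, and on array 5 it was above it. Its difference was -0.19 (95% CI -0.45 to 0.07, adjusted p = 0.365). KPNA1, KPNA3, KPNA5 and KPNA6 had changes of -0.34 to 0.18. KPNA7 averaged 2.38 in vehicle, among the dimmest 30% of genes, and differed by -0.01.

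Of the 23 nucleoporin genes among the members 2 fell and 0 rose, where 5.95% of all genes fell and 5.03% rose. NUP205 encodes a large scaffold protein of the inner ring. It read 7.54, 6.97, 7.32, 7.50 and 7.11 in vehicle and 6.89, 6.52, 6.80, 6.43 and 6.72 in doxycycline tumours. Vehicle array 2 and doxycycline array 1 came nearest to each other, without overlapping. NUP205 fell by 0.62 (SE 0.15, 95% CI -0.94 to -0.30, limma adjusted p = 0.0181). Its adjusted p was 0.0514 without vehicle array 1, 0.0593 with the stroma covariate and 0.0644 without doxycycline arrays 4 and 5.

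NDC1 encodes a membrane protein that anchors the pore in the nuclear envelope. Its values were 7.98, 7.45, 7.69, 7.97 and 7.87 in vehicle and 7.09, 6.42, 7.03, 6.90 and 7.46 in doxycycline tumours. Doxycycline array 5 just exceeded vehicle array 2, and the other 4 doxycycline arrays lay below all vehicle arrays. NDC1 fell by 0.81 (SE 0.18, 95% CI -1.21 to -0.41, limma adjusted p = 0.0142), 1.75-fold higher in vehicle. The adjusted p was 0.0589 with unequal variances. NUP210, the other membrane anchor among the members, read 4.59, 4.91, 4.25, 4.74 and 4.90 in vehicle and 5.25, 3.52, 5.00, 4.47 and 4.64 in doxycycline tumours. The doxycycline arrays of NUP210 spanned more than the vehicle arrays on both sides, and its difference was -0.10 (95% CI -0.70 to 0.50).

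The promoters of the 2 nucleoporin genes that fell are shown because both hold TTTGAA, in capitals (RefSeq, GRCh38.p14, NDC1 at chr1:53838277-53838546, minus strand, NUP205 at chr7:135557667-135557936, plus strand).
NDC1: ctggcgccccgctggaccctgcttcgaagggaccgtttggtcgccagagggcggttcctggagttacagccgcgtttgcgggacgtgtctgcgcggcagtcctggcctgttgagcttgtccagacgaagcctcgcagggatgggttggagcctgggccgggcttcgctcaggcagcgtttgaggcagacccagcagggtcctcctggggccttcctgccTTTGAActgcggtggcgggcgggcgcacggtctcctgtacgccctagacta
NUP205: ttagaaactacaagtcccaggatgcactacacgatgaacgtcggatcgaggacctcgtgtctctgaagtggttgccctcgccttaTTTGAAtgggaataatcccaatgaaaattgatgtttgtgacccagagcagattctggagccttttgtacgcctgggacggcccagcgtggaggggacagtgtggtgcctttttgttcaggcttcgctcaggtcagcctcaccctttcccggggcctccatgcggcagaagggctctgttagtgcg
TTTGAA began 31 bases before the start of NDC1 and 165 bases before that of NUP205, and CACGTG was in neither window.

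None of the 6 members of the Y complex, the outer scaffold of the pore, passed. Of these 6 changes 5 were below 0, where 47.6% of those of all genes were. SEH1L, a Y complex gene outside the symbol rule, did pass and is given with the further lists. NUP85 came closest, at 7.56, 7.22, 7.48, 7.49 and 7.43 in vehicle and 6.97, 6.95, 7.20, 6.99 and 7.32 in doxycycline tumours. Vehicle array 2 fell inside the doxycycline range of NUP85. Its difference was -0.35 (95% CI -0.61 to -0.09, limma adjusted p = 0.0900), and it passed with array weights (adjusted p = 0.0433). NUP160 differed by -0.36 (95% CI -0.67 to -0.06, adjusted p = 0.127) and NUP133, which varied widely within groups, by -0.49 (95% CI -1.05 to 0.06). NUP37, NUP107 and NUP43 had changes of -0.20, -0.08 and 0.02.

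In the inner ring, NUP155 read 8.37, 8.22, 8.51, 8.53 and 8.38 in vehicle and 8.24, 7.91, 8.29, 7.91 and 8.35 in doxycycline tumours. These overlapped, and the difference was -0.26 (95% CI -0.55 to 0.02, limma adjusted p = 0.237). NUP188, a scaffold protein gene related to NUP205, differed by -0.22 (95% CI -0.49 to 0.04), NUP93 by 0.03 and NUP35 by 0.11. In the central channel, whose proteins form the permeability barrier, NUP54 read 7.16, 7.12, 7.04, 7.08 and 7.18 in vehicle and 6.62, 7.07, 7.23, 6.85 and 7.0036 in doxycycline tumours. The spread of NUP54 was wider in doxycycline tumours, and its difference was -0.16 (95% CI -0.44 to 0.12). NUP58 differed by -0.14. NUP62CL, at a mean of 2.27 in vehicle and among the dimmest 30% of genes, differed by 0.31 (95% CI -0.23 to 0.86).

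On the cytoplasmic side, NUP214 read 9.09, 8.44, 8.77, 8.93 and 8.88 in vehicle and 9.06, 9.16, 9.03, 9.50 and 9.20 in doxycycline tumours. Vehicle array 1 alone reached into the doxycycline range of NUP214. Its difference was 0.37 (95% CI 0.05 to 0.68, limma adjusted p = 0.141), and it passed with trended and robust moderation (adjusted p = 0.0476). NUP88, the partner of NUP214, and NUP42 differed by 0.08 and 0.14. RANBP2, which encodes the filament protein that holds RANGAP1 at the pore, differed by -0.03 (95% CI -0.32 to 0.27). RANBP2 shares near-identical sequence with the RGPD genes, so its value is uncertain. Among the nuclear basket genes TPR read 8.02, 8.18, 8.05, 8.19 and 8.17 in vehicle and 8.20, 8.24, 8.40, 7.99 and 8.16 in doxycycline tumours. The TPR groups overlapped widely, with a difference of 0.08 (95% CI -0.17 to 0.32). NUP50 and NUP153, also of the basket, differed by 0.03 and -0.04, with intervals of -0.22 to 0.28 and -0.28 to 0.19.

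**Figure D3:**
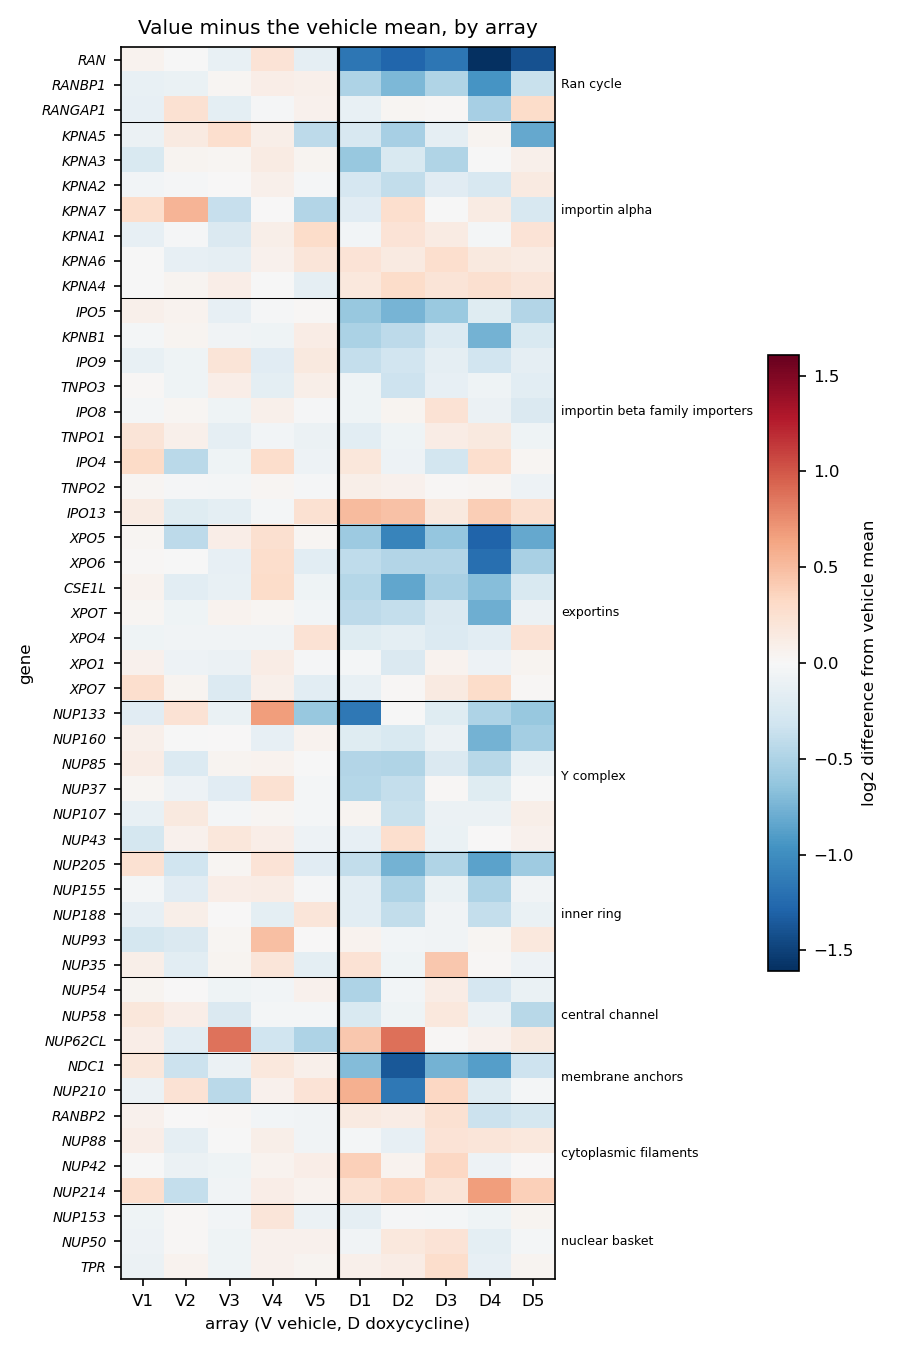
Each of the 49 members (rows, by role) on each array (columns), as the log2 value minus the vehicle mean of that gene; blue is below and red above the vehicle mean. The row of RAN is blue in every doxycycline column, while rows of the nuclear basket and importin alpha genes show small differences of both signs.

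In 9 members, 8 of the 9 that fell and XPOT, all doxycycline arrays lay below all vehicle arrays, where 6.43% of all genes did so. Doxycycline array 4 was the lowest of its group in 6 of the 9 members that fell, and array 2 in the other 3. The median SD within a group over the 49 members was 0.14 in vehicle and 0.20 in doxycycline tumours, against 0.23 and 0.28 over all genes.

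RefSeq held a promoter window of 300 bases for 42 of the 49 members, among them 7 of the 9 that fell. CACGTG, which reads the same on both strands, was found in 7 of the 42, or 16.7%, and in 10.8% of the 14129 genes on the array with a window. RAN was the 1 member of those 7 that fell. The other 6 with an E-box, IPO4, KPNA3, NUP188, NUP50, TNPO2 and XPO1, did not pass. TTTGAA, on either strand, was found in 11 of the 42, or 26.2%, and in 15.9% of genes on the array. Of the 7 members that fell and had a window, RAN, NDC1, NUP205 and CSE1L held it. Among the 35 that did not pass 7 did: KPNA2, NUP153, NUP35, NUP37, NUP50, NUP93 and RANGAP1. Copies of TTTGAA began 35 bases before the start in NUP35 and 24 before it in NUP93, while the copy in CSE1L lay after the start. With so few windows these counts are a description. Of all 35116 windows in the table, 7.26% held CACGTG and 15.2% held TTTGAA.

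Other genes of nuclear structure and transport, together with mitosis genes, were read from 6 lists of 81 measured genes. Of the 81, 24 fell and 5 rose, and 18 of the 24 were in the list of 21 mitosis genes. Over all genes 5.95% fell and 5.03% rose. Of 8 further pore parts 1 fell, SEH1L, a Y complex gene, by 0.80 (95% CI -1.13 to -0.48, limma adjusted p = 0.00479). Of 10 further genes listed as Ran regulators 1 rose, NUTF2, whose product carries RanGDP into the nucleus, by 0.48 (95% CI 0.22 to 0.74, adjusted p = 0.0224). The call of NUTF2 was lost without vehicle array 1, 2 or 3 and without doxycycline arrays 4 and 5 together. It was also lost with the stroma covariate and with the minimum change of 1.5-fold. In that list 2 genes rose without doxycycline array 2 or 3. The median change was -0.18 over the pore parts and 0.21 over the list of Ran regulators. That list was broad, with RANBP6, RANBP9, RANBP10, RANBP17, RGPD3 and RGPD4 in it, so its median does not measure regulation of Ran. None of 7 other carriers and adaptors passed, HIKESHI having the smallest p, with a difference of -0.28 (adjusted p = 0.230).

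Of 21 mRNA export genes 3 fell and 1 rose, with a median change of -0.19, where 5.95% of all genes fell and 5.03% rose. THOC6 and THOC1, subunits of the THO complex that couples transcription to export, fell by 0.94 and 0.55 (limma adjusted p = 0.00194 and 0.0461). PCID2 fell by 0.45 (adjusted p = 0.0162), and DDX19A, a helicase gene of the cytoplasmic pore side, rose by 0.44 (adjusted p = 0.0333). The count of risen genes in that list was 0 without doxycycline array 2, 3 or 5, and also without vehicle array 1, 3, 4 or 5. With the replicate number as a block, or with the minimum change of 1.5-fold, 0 genes of the list rose and 1 fell. With the stroma covariate, or without doxycycline arrays 4 and 5, 0 rose. Of 15 genes of the nuclear lamina and envelope 2 fell and 3 rose, with a median change of 0.22. LMNB1, lamin B1, fell by 1.17 (95% CI -1.51 to -0.82, adjusted p = 0.000753), while LMNA, lamin A and C, rose by 0.53 (95% CI 0.29 to 0.77, adjusted p = 0.00851). TMPO fell by 0.86 (adjusted p = 0.0324), and SYNE2, which links the nucleus to the cytoskeleton, rose by 0.81 (adjusted p = 0.00762). The count of fallen envelope genes was 1 with vehicle array 1, 3, 4 or 5 left out, and with doxycycline array 2 or 5 left out. It was also 1 with the replicate block, with unequal variances, with the stroma covariate and without doxycycline arrays 4 and 5, while 5 rose with trended and robust moderation or without the dimmest 30% of genes.

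**Figure D4:**
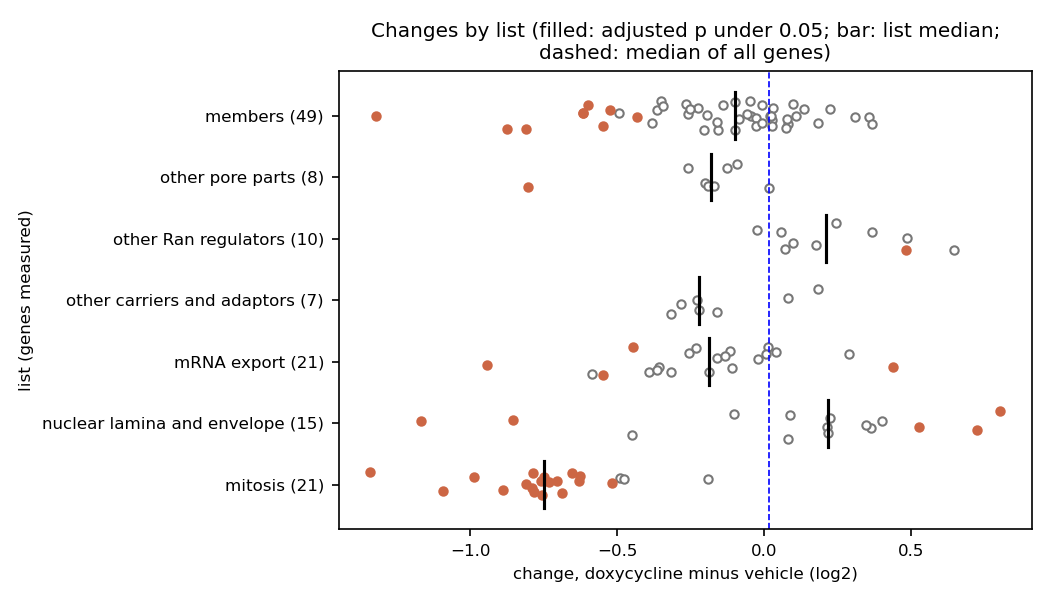
Change of each gene, doxycycline minus vehicle on the log2 scale, for the 49 members and the 6 further lists; filled points passed the adjusted p of 0.05, black bars are list medians and the dashed line is the median of all genes, 0.02. The mitosis list lies lowest, with a median of -0.75, and the members spread around a median of -0.10.

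Of 21 mitosis genes 18 fell and 0 rose, with a median change of -0.75, where 5.95% of all genes fell and 5.03% rose. CDK1, KIF20A, PLK1 and NUSAP1 had the smallest p, with changes of -0.99, -1.34, -0.75 and -0.69. The count of 18 was 11 without vehicle array 3, 9 without vehicle array 4 and 10 without doxycycline array 2. With the stroma covariate it was 10, and with unequal variances 6. Relative to the vehicle mean, the mean over the mitosis list was -0.70, -1.03, -0.46, -0.98 and -0.49 on doxycycline arrays 1 to 5. The mean over all 49 members was -0.18, -0.22, -0.09, -0.25 and -0.13 on the same arrays. Arrays 2 and 4 were the lowest in both. The part of cell division in the members' values was not tested.

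Markers of other cell types that the tumours could hold were read from 3 lists. Of 13 macrophage and monocyte markers 2 rose, LYZ by 1.28 and CD14 by 0.79, and 0 fell, where 5.03% of all genes rose. Changes were above 0 in 10 of the 13 and below 0 in 3, CSF1R (-0.15), C1QA (-0.14) and C1QB (-0.11). The probes are for human genes and the host is a mouse, so the cells behind these values cannot be told. The mean level of the 13 markers was 4.08 to 4.33 over vehicle and 4.31 to 4.81 over doxycycline arrays, highest on doxycycline array 4. Relative to the vehicle mean, it was 0.19, 0.26, 0.13, 0.63 and 0.43 on doxycycline arrays 1 to 5. The mean over the 9 members that fell was -0.59, -0.85, -0.59, -0.94 and -0.55 on the same arrays. Of the 9 members that fell, 6 were lowest of the doxycycline group on array 4. NDC1, IPO5 and CSE1L were lowest on array 2, and IPO5 was highest on array 4. None of 9 endothelial and 8 fibroblast and pericyte markers passed. The endothelial mean was 3.49 to 3.91 and 3.53 to 4.20, and the fibroblast mean 5.44 to 5.89 and 5.35 to 5.62, in vehicle and doxycycline tumours. Of the 9 endothelial markers 6 were among the dimmest 30% of genes, as were 4 of the macrophage and 2 of the fibroblast markers. With the mean of these 3 marker lists as a covariate, 5 members fell in place of 9: RAN, RANBP1, XPO5, NDC1 and IPO5. The other 4 kept their direction, with changes of -0.43 for KPNB1, -0.53 for CSE1L, -0.50 for NUP205 and -0.49 for XPO6. What part other cell types have in the members' values was not tested.

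**Figure D5:**
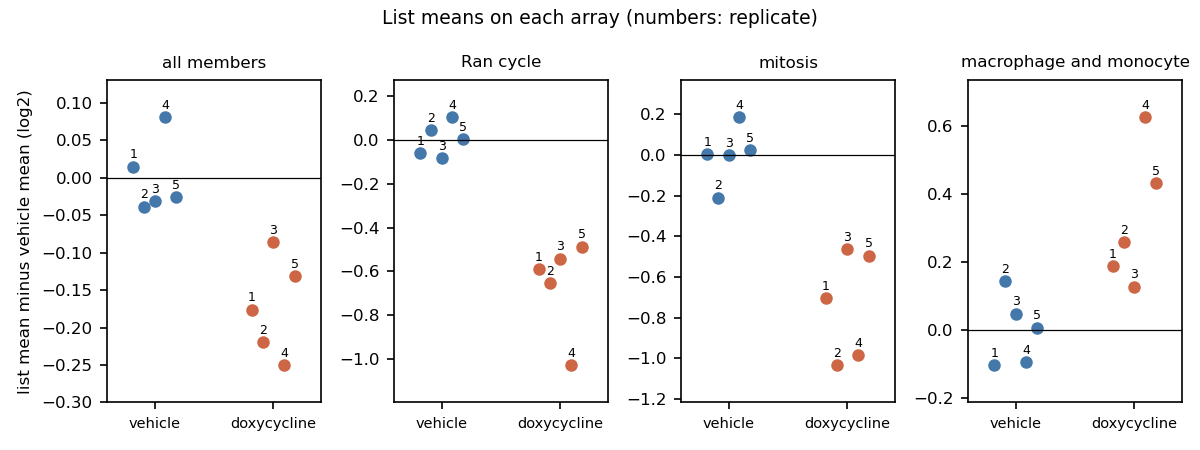
Mean over a list on each array minus the vehicle mean of that list, on the log2 scale, for all 49 members, the 3 Ran cycle genes, the 21 mitosis genes and the 13 macrophage and monocyte markers; numbers give the replicate and each panel has its own y axis. Doxycycline array 4 is the lowest array for the members and the Ran cycle genes and the highest for the macrophage markers.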

How the data were processed

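Total RNA from frozen tumour tissue was extracted with TRIzol and labelled with biotin, per the labels' protocols, and hybridised to Affymetrix arrays. The deposited table holds log2 expression, for which the submitters' processing notes name RMA. RMA shares a quantile normalization across arrays, so a shift of all genes would not show. No source used here states the version of RMA or a genome build. Of 18569 probe sets, 17511 had 1 gene symbol in the platform annotation, 0 had several and 1058 had none. The brightest probe set stood for the 17 genes with over 1, which left 17492 genes. Mouse RNA can hybridise to the human probes.

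The 2 groups of 5 arrays entered a single limma fit (version 3.58.1, R 4.3.3) with group as its only term and moderated two-sided tests. The p-values were adjusted by Benjamini-Hochberg over the 17492 genes, and an adjusted p under 0.05 passed. The procedure was tested on simulated data that used the vehicle variances for both groups. Its planted changes were larger than most changes of the members that fell, so it does not cover the smaller ones. Nothing says how the tumours were spread over mice or days, so p-values measure the spread between these samples. The number of arrays limits the precision. Members, lists and alternatives were chosen with earlier results of these data known. Every member is named. Array values are given for members past the threshold and for the member with the smallest p in each role that missed it. Up to 4 genes past the threshold are named per further list, or the 1 with the smallest p. KPNA2 was shown by array after its values were seen. The 22 alternatives changed the block, moderation, weights, scaling, filter, probe set rule, test, covariate (the stroma score: the mean of centred macrophage, endothelial and fibroblast markers), minimum change of 1.5-fold or arrays used. Leaving out doxycycline arrays 4 and 5 together was chosen after seeing the data.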

Additional observations from a re-analysis of the deposited data

Results flagged for a closer look

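In 4 of the 98 groups of 5 arrays examined (49 members in 2 groups), 1 array stood far from the other 4, measured by its gap to the nearest array over the whole range. Chance alone gives about 1 in 20 such groups. XPO6 was 5.78 on doxycycline array 4, with the other doxycycline arrays at 6.47 to 6.58. KPNA3 was 5.67 on vehicle array 1, with the others at 5.94 to 6.05. XPO4 was 7.20 on vehicle array 5, with the others at 6.90 to 6.92, and also 7.20 on doxycycline array 5, with the others at 6.75 to 6.82. Without doxycycline array 5 the change of XPO4 was -0.18, without vehicle array 5 it was -0.04, and XPO4 passed in neither.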

How the results depend on the processing

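All 9 members that fell kept their direction in the 22 alternatives, and 11 of the 40 others changed sign in at least 1 while passing in none of those. The block, moderation, filter, probe set rules, unequal variances and minimum change left the size of each of the 9 changes as it was. Direction could therefore not turn in those alternatives. RAN, RANBP1 and XPO5 passed in all 22. The count of lower members ranged from 5 to 10 when 1 array was left out and was 5 with the stroma covariate. It was 6 with the replicate block, with the test of unequal variances, with the minimum change of 1.5-fold and without doxycycline arrays 4 and 5. The labels name no pairing of tumours by replicate number. Correlations of same-numbered deviations were -0.06 to 0.19, and arrays 2 and 5 correlated best with their own number. Whether the numbers pair tumours is not known. With the replicate block 0 members were higher. The count of higher members was 1 with trended and robust moderation (NUP214) and 1 with unequal variances (KPNA4). The number of genes of the further lists called higher, 5 in the main analysis, was 3 with the replicate block, 8 with trended and robust moderation, 8 without the dimmest 30% of genes, 2 with the stroma covariate, 2 with the minimum change, 3 without doxycycline arrays 4 and 5, and 2 to 6 without 1 array. The number called lower, 24 in the main analysis, was 10 with unequal variances, 15 with the stroma covariate and 13 to 23 without 1 array, and these counts do not say which genes kept their call. The cause of these shifts was not tested. No detection call was used, so how far KPNA7 and NUP62CL stand above background is unknown.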
